A study of Mus musculus with 4 samples.

Results

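The genes described here are 40 mouse genes of mitosis and chromosome segregation, chosen by name: motors, kinetochore and spindle proteins, mitotic kinases and their partners, and proteins that shape mitotic chromosomes. All 40 had a row among the 24411 gene rows of each of the 4 deposited count tables. Each table is a library of single cells, sorted from marrow as haematopoietic stem cells (HSC), with 2 libraries of genotype Mat KO and 2 of genotype WT. The series concerns small nucleolar RNAs of the imprinted Dlk1-Gtl2 locus. Which part of the locus Mat KO removes, and the age, strain and number of the animals, are not given in the sources used here. No treatment is given other than that the sorted cells stayed on ice before lysis. Values for the 4 libraries are given below in the order Mat KO replicate 1, Mat KO replicate 2, WT replicate 1, WT replicate 2.

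At mitosis, cyclin B and its kinase Cdk1 drive condensation of the chromosomes and assembly of the spindle. Kinetochores bind the spindle fibres, a checkpoint holds the cell until every chromosome is attached, and the anaphase-promoting complex then ends mitosis by marking cyclins and securin for destruction. Most of these genes are transcribed late in the cell cycle and silenced in resting cells, through the MuvB complex with the B-Myb and FoxM1 activators or the DREAM repressor. Long-term HSC are mostly resting, so few of them hold these transcripts at any time, whereas early B-cell, myeloid and erythroid precursors of the marrow divide often.

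A barcode was kept as a cell when at least 1000 genes were detected, which left 44, 48, 48 and 48 cells, 188 in all. Their unique molecular identifiers (UMIs, tags that count cDNA molecules) summed to 1900319, 1768647, 3183279 and 3253608, so the Mat KO libraries were the shallower ones. All 30 genes of a long-term HSC marker list were present in each library, at 0.504% to 0.693% of UMIs. Granulocyte and monocyte markers stood apart in Mat KO replicate 1, at 3.73% of UMIs against 0.377% to 0.742% in the other 3 libraries. Xist without Y-linked transcripts was found in 11 to 21 cells of each library and the reverse in 14 to 23. Cells of the 4 libraries carried the same set of barcodes: 44 barcodes held a kept cell in all 4. Of 24 barcodes whose cell had at least 20 of the 40 genes in some library, 8 had such a cell in 2 or more libraries, and in 4 of these 8 the cells fell in different cell classes (below).

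Promoter sequences show what many of these genes share beyond the choice by name. RefSeq promoter windows, from 250 bases before to 50 after the transcript start on GRCm38.p6 (mm10), were matched for 33 of the 40 genes. Each window was searched on both strands, with overlapping matches allowed, for the cell cycle homology region bound by MuvB (letters TTTGAA or TTTAAA) and for the CCAAT box bound by NF-Y (letters CCAAT). The first stood in 27 of the 33 genes (81.8%) and in 27.6% of all 32851 windows. CCAAT stood in 25 genes (75.8%) against 37.4% of all windows, and in at least 2 copies in 19 genes (57.6%) against 11.7%. Both kinds stood together in 22 genes (66.7%) against 10.7% of all windows. A match describes letters in a window and is not a shown binding site. The 180 bases before the start are printed for 4 genes, 5′ to 3′ on the gene's strand, with matches in capitals (ATTGG and TTCAAA are matches on the other strand). Ccnb2 (chr9:70421555-70421734, minus strand), Top2a (chr11:99024190-99024369, minus strand) and Ckap2l (chr2:129297213-129297392, minus strand) are shown because they hold both kinds and recur in the results. Nusap1 (chr2:119618118-119618297, plus strand) is shown as a gene of the same expression pattern whose window holds neither.
Ccnb2: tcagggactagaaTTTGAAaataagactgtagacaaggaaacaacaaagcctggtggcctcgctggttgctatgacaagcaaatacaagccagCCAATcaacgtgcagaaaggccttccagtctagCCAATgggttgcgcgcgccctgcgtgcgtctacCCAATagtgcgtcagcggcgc
Top2a: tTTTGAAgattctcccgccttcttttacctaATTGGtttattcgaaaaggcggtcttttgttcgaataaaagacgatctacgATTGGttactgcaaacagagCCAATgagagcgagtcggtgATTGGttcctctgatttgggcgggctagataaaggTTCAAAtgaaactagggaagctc
Ckap2l: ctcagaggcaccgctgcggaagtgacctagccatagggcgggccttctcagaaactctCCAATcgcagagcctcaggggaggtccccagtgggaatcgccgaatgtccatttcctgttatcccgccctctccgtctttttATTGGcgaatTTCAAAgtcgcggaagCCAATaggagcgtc
Nusap1: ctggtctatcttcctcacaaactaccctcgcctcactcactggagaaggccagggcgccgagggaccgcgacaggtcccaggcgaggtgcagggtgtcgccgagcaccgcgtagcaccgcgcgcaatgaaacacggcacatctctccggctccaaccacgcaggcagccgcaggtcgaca
Ccnb2 had 3 CCAAT matches and 1 cell cycle homology match in these bases, Top2a 4 and 2, Ckap2l 3 and 1, and Nusap1 0 and 0.

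The number of the 40 genes with at least 2 UMIs was counted in each cell, and a cell with at least 10 of them was called a cell with mitotic transcripts. There were 13, 5, 15 and 25 such cells, or 29.5%, 10.4%, 31.2% and 52.1% of the kept cells, 58 in all. Exact 95% binomial intervals, which cover counting error only, ran from 16.8% to 45.2%, 3.47% to 22.7%, 18.7% to 46.3% and 37.2% to 66.7%. Both Mat KO shares lay under both WT shares, Mat KO replicate 1 only just. The difference of −21.7 points gave an exact two-sided permutation p of 0.33, and with 2 libraries in each group no smaller value is possible.

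The number of genes per cell is a range with a sparse middle, and the limit of 10 lay in its dense part: 23 cells had 7 to 9 of the genes and 14 had 10 to 12, whereas 3 had 17 to 19 and 2 had 20 to 22. With at least 20 genes required, a limit chosen after the data were seen, 11, 4, 7 and 11 cells remained, or 25.0%, 8.33%, 14.6% and 22.9%. The genotypes then overlapped, with Mat KO replicate 1 highest and Mat KO replicate 2 lowest. The difference shrank to −2.08 points (exact permutation p = 1). Cells with 10 to 19 genes numbered 2, 1, 8 and 14 and were thus mostly WT. Thinning every cell to 8800 UMIs, which left out 5, 7, 2 and 4 shallower cells, gave 25.6%, 9.76%, 15.2% and 22.7% at the limit of 10, a difference of −1.27 points. At equal depth the genotypes overlapped. Before thinning, cells with mitotic transcripts had median totals of 58829, 52128, 94235 and 73139 UMIs and the other cells 27624, 23599, 40400 and 30252.

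**Figure D1:**
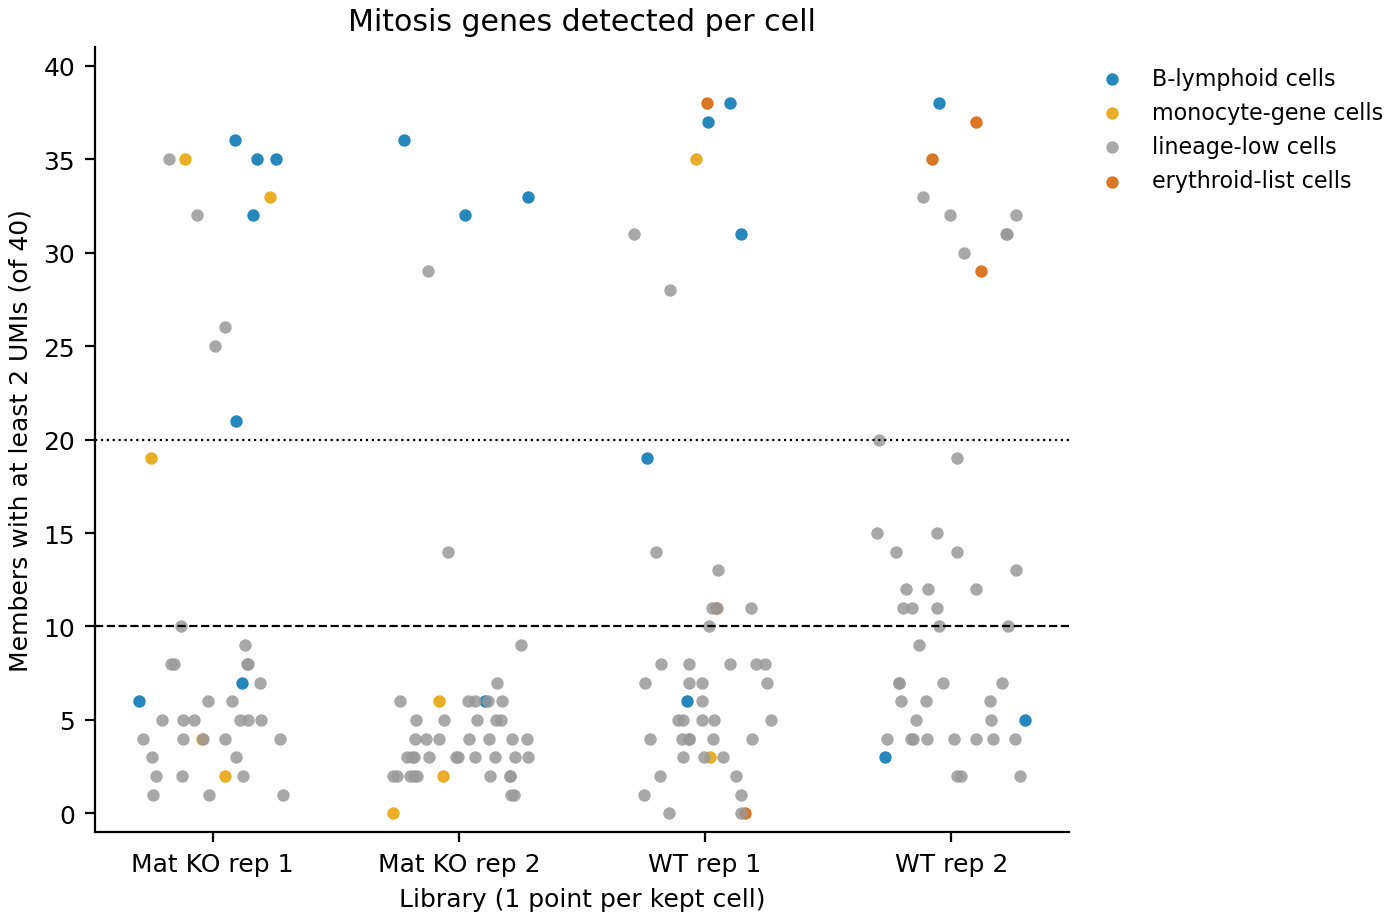
Number of the 40 mitosis genes with at least 2 UMIs in each kept cell (vertical axis), by library (horizontal axis). Each point is 1 cell, colour gives its cell class, and the dashed and dotted lines mark 10 and 20 genes. On or above the dotted line lie 33 cells, 11, 4, 7 and 11 by library, and 1 cell with 19 genes lies just under it in each library but Mat KO replicate 2.

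The 33 cells with at least 20 of the genes also differed in other transcripts. Their median share of UMIs in the 40 genes was 2.02%, 2.98%, 2.0% and 1.41%, against 0.152%, 0.123%, 0.126% and 0.129% in cells with fewer than 10. They held 90.1%, 82.8%, 76.3% and 82.4% of all UMIs of the 40 genes. HSC marker genes took a median of 0.0815%, 0.0798%, 0.363% and 0.296% of their UMIs, against 0.742% to 0.805% in cells with fewer than 10 genes. These are descriptions of cells chosen by the same counts, with no test.

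Cell classes came from marker lists: at least 3 listed genes with 2 or more UMIs and at least 0.2% of the cell's UMIs. As planned, the granulocyte and monocyte list took 33 of 44 cells of Mat KO replicate 1, where transcripts of granule proteins such as S100a8, S100a9, Camp and Ngp had a UMI in all 44 cells, and 4 cells remained there once B-lymphoid cells were left out too. A narrower list without 13 granule genes, chosen after the data were seen, is therefore used below, and its cells are called monocyte-gene cells. It gave 7, 4, 5 and 3 cells with B-cell transcripts, 5, 3, 2 and 0 monocyte-gene cells, 0, 0, 3 and 3 cells passing the erythroid list, and 32, 41, 38 and 42 lineage-low cells.

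Cells with many mitosis genes were common among B-lymphoid cells and uncommon among lineage-low cells. Of 19 cells with B-cell transcripts, 12 (63.2%) had at least 20 of the mitosis genes, against 14 of 153 lineage-low cells (9.15%), 3 of 10 monocyte-gene cells and 4 of 6 erythroid-list cells. By library, 5, 3, 3 and 1 of the cells with at least 20 genes were B-lymphoid, and 4, 1, 2 and 7 were lineage-low. Pooled over libraries, HSC markers took a median of 0.0586% of UMIs in these B-lymphoid cells and 0.381% in these lineage-low cells. The median was 0.355% in the monocyte-gene and 0.0866% in the erythroid-list cells with at least 20 genes. The 12 B-lymphoid cells carried Vpreb3 and Cd79b, and 11 of them carried Igll1 and Vpreb1, parts of the surrogate light chain of pre-B cells. Each had 10 to 16 of the 20 listed genes at 2 or more UMIs and 2 to 8 at 0. Pax5 was at 0 in most of them and had at most 2 UMIs, while Dntt and Rag1 were found in most. No stage was assigned to these cells. Of the 3 monocyte-gene cells, 2 were led by Lyz2 and Ly6c2 and 1 by S100a8 and S100a9, which are granule genes. The erythroid list did not hold for its WT replicate 1 cell. That cell passed on Car2 (868 UMIs), Blvrb (85) and Tfrc (11) with Klf1 and Car1 at 0, and carried 19 of 30 HSC markers at 2 or more UMIs, Kit among them. The 3 erythroid-list cells of WT replicate 2 had Klf1 (26 to 55 UMIs) and Car1. A lineage-low cell of Mat KO replicate 1 with 26 of the mitosis genes met the rule for no class with the narrower list, yet had B-lymphoid markers at 0.439%, T and NK markers at 0.182% and HSC markers at 0.0410% of its UMIs.

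Leaving out B-lymphoid and monocyte-gene cells kept the order of the libraries at the limit of 10 genes and changed it at 20. At the limit of 10 genes, 5 of 32, 2 of 41, 10 of 41 and 24 of 45 cells remained with mitotic transcripts, or 15.6%, 4.88%, 24.4% and 53.3%. Both Mat KO libraries were lower than both WT libraries (difference −28.6 points, exact permutation p = 0.33, the smallest possible). At 20 genes it was 4 of 32, 1 of 41, 3 of 41 and 10 of 45, or 12.5%, 2.44%, 7.32% and 22.2%, with exact 95% intervals of 3.51% to 29.0%, 0.0617% to 12.9%, 1.54% to 19.9% and 11.2% to 37.1%. The genotypes overlapped there, since Mat KO replicate 1 was above WT replicate 1 (difference −7.30 points, p = 0.667 in the exact permutation test). Thinned to equal depth, the limit of 10 gave 14.3%, 2.86%, 7.69% and 22%, and the genotypes overlapped as well. With the planned broader list, 1 of 4, 1 of 33, 7 of 33 and 19 of 35 cells had at least 10 genes, a difference of −23.7 points (p = 0.667 in the exact permutation test). A class limit of 0.1% of UMIs in place of 0.2% turned it to 9.64 points (exact permutation p = 1).

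Summed over all kept cells, the 40 genes took 0.944%, 0.602%, 0.678% and 0.649% of UMIs. The WT libraries lay between the Mat KO libraries, and the difference of 0.110 points gave p = 1 (exact permutation test). Sums over a library cannot tell fewer dividing cells from less RNA per dividing cell. B-lymphoid cells held 39.9%, 73.7%, 32.2% and 23.2% of the UMIs of the 40 genes, and lineage-low cells 24.5%, 23.5%, 23.4% and 60.6%. WT replicate 2 was thus the library where these transcripts lay mostly in lineage-low cells. Monocyte-gene cells held 35.7% in Mat KO replicate 1 and at most 4.93% elsewhere.

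Without B-lymphoid and monocyte-gene cells the share became 0.399%, 0.199%, 0.513% and 0.549%, and both Mat KO libraries were lower than both WT libraries (difference −0.232 points, exact permutation p = 0.33). A single WT replicate 1 cell carried much of that library's value. It was the Car2-rich cell described above, with 287142 UMIs, and it held 60.6% of the UMIs of the 40 genes left in its library. Without it, WT replicate 1 fell to 0.227%, which lies between the 2 Mat KO libraries. The lineage-low Mat KO replicate 1 cell with B-lymphoid markers held 23.6% of what was left there, and without it that library fell to 0.320%. With the erythroid-list cells also left out, the shares were 0.399%, 0.199%, 0.229% and 0.507% (p = 0.667 in the exact permutation test).

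**Figure D2:**
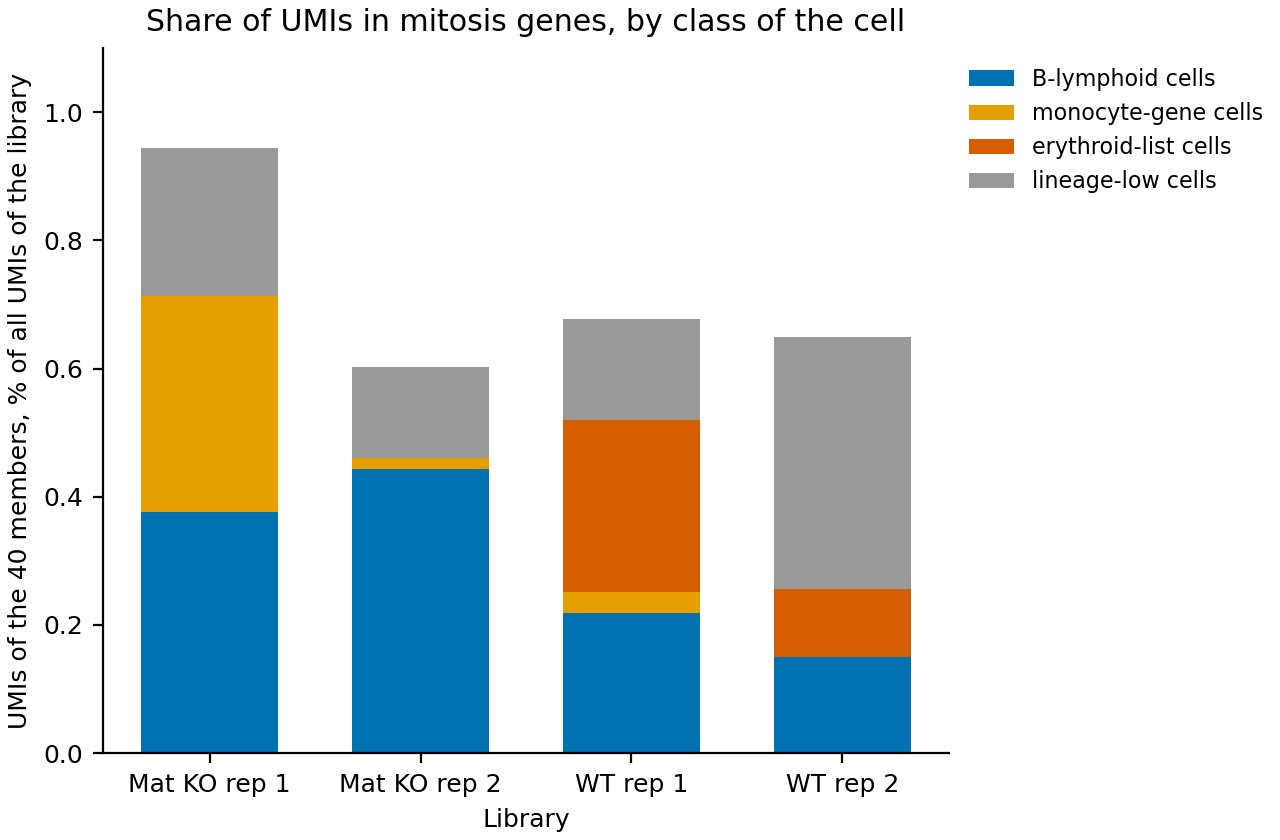
UMIs of the 40 mitosis genes as a percentage of all UMIs of each library (bar height), divided by the class of the cell they came from (colours). B-lymphoid cells fill the largest part in Mat KO replicates 1 and 2, erythroid-list cells in WT replicate 1 and lineage-low cells in WT replicate 2.

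Each gene was then compared between genotypes on UMIs summed per library, with edgeR's quasi-likelihood test and Benjamini-Hochberg adjustment over all 10663 genes tested. None of the 40 genes passed an adjusted p of 0.05, at which 8 genes (0.075% of those tested) passed in either direction. Unadjusted p under 0.05 was reached by 3 of the 40, against 7.82% of all genes, and DESeq2 also called 0 of the 40. In Mat KO, 25 of the 40 were higher, against 49.4% of all genes, with a median log2 fold change of 0.09 against −0.01 over all genes. Genotypes were without overlap for 10 of the 40 (7 higher and 3 lower in Mat KO), against 39.1% of all genes. Leaving out Mat KO replicate 1 turned the median to −0.23, and leaving out Mat KO replicate 2 raised it to 0.50, so the direction depended on the Mat KO library kept. In the latter fit Hmgb2 and Cenpf were called higher, where 1.05% of all genes were called.

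The 5 chromosome structure genes took 0.494%, 0.359%, 0.351% and 0.351% of UMIs. Top2a, the topoisomerase that untangles sister chromatids, counted 650.4, 623, 631 and 653 CPM (UMIs scaled to a common library total). Its 4 libraries were nearly level (log2 fold change 0.02 ± 0.22 SE). Mki67, which coats mitotic chromosomes and is the source of the Ki-67 antigen, counted 724, 457, 382 and 480.4 CPM. The genotypes overlapped, with Mat KO replicate 1 highest (0.48 ± 0.27). Smc4, a core subunit of condensin, counted 519, 364, 385 and 467 CPM, with Mat KO replicate 2 lowest and Mat KO replicate 1 highest (0.08 ± 0.26). Hmgb2, a chromatin protein abundant in dividing cells, counted 3004, 2143, 2090.0 and 1877 CPM. Both Mat KO libraries were above both WT libraries, Mat KO replicate 2 by little (0.40 ± 0.19, edgeR adjusted p = 0.649). Cdca2, which targets a phosphatase to chromatin, ranged from 7.92 to 45.8 CPM, both ends in Mat KO.

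Among the mitotic kinases and their cofactors, 4 of 9 were higher and 5 lower in Mat KO, none past the test. Cks2 and Cks1b, small subunits that dock Cdk1 on its targets, differed in pattern. Cks2 counted 359.9, 131, 262 and 299.7 CPM, with the WT libraries between the Mat KO libraries (log2 fold change −0.17 ± 0.39). Cks1b counted 162, 119, 192 and 227, and both Mat KO libraries were lower than both WT libraries (−0.55 ± 0.30, edgeR adjusted p = 0.716). Ccnb2, a B-type cyclin, counted 206, 163, 231 and 92.5, with WT at both ends (0.22 ± 0.40). Birc5 and Cdca8, survivin and borealin of the chromosomal passenger complex that carries Aurora B, behaved alike in rank. Birc5 counted 213, 119, 131 and 145 CPM (0.29 ± 0.34), and Cdca8 188, 99.5, 123 and 144 (0.13 ± 0.36). For both, Mat KO held the highest and the lowest library. Cdk1 (45.8 to 194 CPM), Tpx2 (61.6 to 134), Aurkb (45.2 to 61.2) and Aurka (3.39 to 26.1) also overlapped between genotypes.

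Of 6 centromere and kinetochore genes, 3 were higher and 3 lower in Mat KO. Cenpf, a large protein of the outer kinetochore, counted 389, 237, 188 and 129.7 CPM. Both Mat KO libraries were above both WT libraries (log2 fold change 1.01 ± 0.32, edgeR adjusted p = 0.468), the smallest of the 40 in p. The motor Cenpe (79.2 to 170.0 CPM), the Ndc80 complex genes Ndc80, Nuf2 and Spc24, and the shugoshin Sgol2a, a protector of cohesion at the centromere, overlapped between genotypes. Of 3 spindle checkpoint genes 2 were lower. Ttk, the kinase that starts checkpoint signalling, counted 14.2, 9.05, 40.2 and 16.0 CPM, with both Mat KO libraries lower (−1.24 ± 0.79, edgeR adjusted p = 0.757). Bub1 (22.6 to 44.9) and Bub1b (59.1 to 101) overlapped.

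Kinesin motors were mostly lower in Mat KO, 4 of 5, none past the test. Kif20b, a motor of late mitosis and cytokinesis, counted 72.6, 33.9, 132 and 92.8 CPM, with both Mat KO libraries below both WT libraries (log2 fold change −1.05 ± 0.44, edgeR adjusted p = 0.602). Kif11, the motor that pushes spindle poles apart, went the other way at 195, 135, 129 and 106 CPM (0.52 ± 0.32). Kif23 (29.4 to 122), Kif20a (0.565 to 9.47) and Kif2c, which removes tubulin from microtubule ends (0 to 31.7), had their lowest value in Mat KO replicate 2. Of the kinesins, only Kif20b and Kif11 did not overlap between genotypes, each in 1 direction.

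All 8 spindle and microtubule genes and all 3 genes of exit from mitosis had a positive fold change in Mat KO, none past the test. Gas2l3, which links actin and microtubules at the midzone, counted 116, 53.1, 50.3 and 22.4 CPM (log2 fold change 1.24 ± 0.53, edgeR adjusted p = 0.61). Both Mat KO libraries were above WT, Mat KO replicate 2 only just. Nusap1, a spindle bundling protein, counted 298, 186, 175 and 205, and the genotypes overlapped (0.38 ± 0.30). Tacc3 (149, 83.7, 77.3 and 68.5) and Gtse1 (20.5, 9.61, 9.11 and 6.76) did not overlap, whereas Hmmr, Ckap2, Ckap2l and Ckap5 did. Ube2c, the ubiquitin-conjugating enzyme of the anaphase-promoting complex, counted 313, 163, 161 and 154 CPM. Mat KO replicate 1 stood far above the other 3, which were nearly level (0.62 ± 0.33, edgeR adjusted p = 0.703). Cdc20, an activator of that complex (30.0 to 73.7), Cdca3 (44.1 to 139) and Anln, the anillin of the cleavage furrow (23.1 to 48.4), overlapped.

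**Figure D3:**
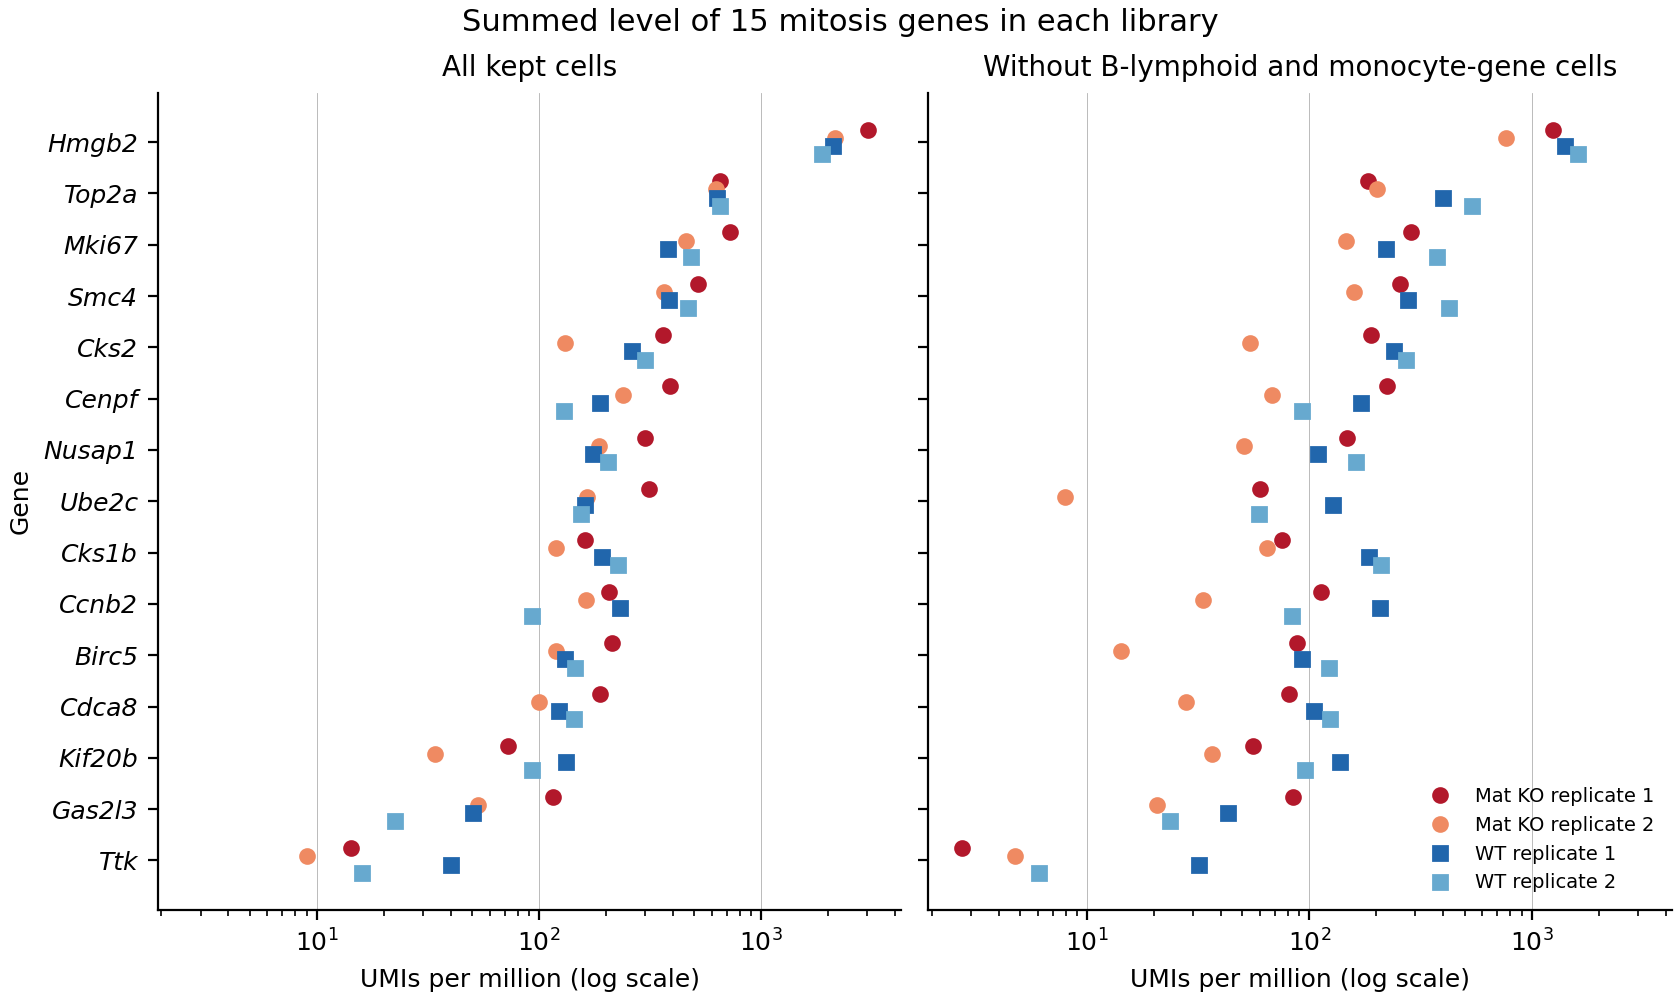
CPM (log scale) of 15 mitosis genes in each library, in all kept cells (left) and without B-lymphoid and monocyte-gene cells (right). Circles are the 2 Mat KO libraries and squares the 2 WT libraries. For Top2a the 4 libraries lie together on the left, and on the right both Mat KO libraries (184 and 202) lie under both WT libraries (397 and 539.7).

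The same test without B-lymphoid and monocyte-gene cells turned most of the set to lower values in Mat KO. No member passed there either, when 4 of 10104 genes (0.0396%) did. Of the 40, 35 were lower, against 50.9% of all genes, with a median log2 fold change of −1.0 against −0.01 over all genes. Unadjusted p was under 0.05 for 13 of the 40, all lower, against 3.67% of all genes lower at that limit. Both Mat KO libraries lay under both WT libraries for 21 of the 40, against 22.1% of all genes. Sgol2a, Kif2c and Ttk count in the 35 and the 21, and Sgol2a also in the 13. They passed the filter on low counts through the WT libraries alone. Sgol2a had 5, 1, 204 and 104 UMIs left, Kif2c 5, 0, 79 and 20, and Ttk 3, 6, 84 and 18. By role, all 9 kinases and cofactors, all 5 chromosome structure genes and all 3 genes of mitotic exit were lower. So were 5 of 6 centromere genes, 4 of 5 kinesins and 6 of 8 spindle genes. With the erythroid-list cells left out too, all 3 genes of mitotic exit were higher, and 50.6% of all genes were lower. Lower were then 8 of 9 kinases and cofactors, all 5 chromosome structure genes, 4 of 6 centromere genes and 5 of 7 spindle genes. The planned broader class gave 33 of 40 lower, against 55.6% of all genes, a median of −1.24 and 0 members called, where 0.0737% of all genes were called. With the replicate block edgeR called Top2a lower there (adjusted p = 0.0211), against 0.126% of all genes. Without the filter on low counts it called Top2a, Ccnb2 and Ckap2l lower, against 0.223%. In these fits Mat KO replicate 1 kept only 4 cells, with 90.5% of its UMIs left out. Ccnb2 and Ckap2l stood near the floor there, at 5.55 CPM each.

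Of the 12 members with the most UMIs, Top2a had the smallest p without those cells. It counted 184, 202, 397 and 539.7 CPM, so both Mat KO libraries were under both WT libraries (log2 fold change −1.23 ± 0.28, edgeR adjusted p = 0.213). Cks1b counted 75.5, 64.3, 186 and 211, also without overlap (−1.46 ± 0.37, edgeR adjusted p = 0.279). The next 2 genes lie outside the rule for named genes and were chosen here after their values were seen. Ckap2l, a spindle protein with the smallest p of the set, counted 10, 7.93, 113 and 63.3 CPM (−3.24 ± 0.64, edgeR adjusted p = 0.105). Sgol2a counted 4.55, 0.793, 77.2 and 35.2, from 5, 1, 204 and 104 UMIs. It passed the filter on low counts through the WT libraries alone, so its values are given as a description. With all cells included both genes overlapped between genotypes, Ckap2l at 77.9, 95, 100.2 and 66.1 CPM and Sgol2a at 53.7, 10.2, 77.9 and 32.6 CPM. In WT replicate 1, 92.3% of the Ckap2l UMIs and 79.4% of the Sgol2a UMIs left came from 1 cell.

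Hmgb2 turned from higher to lower, at 1250.3, 766, 1417 and 1614 CPM (−0.55 ± 0.21, edgeR adjusted p = 0.58). Smc4 (257, 159, 279 and 423) and Cks2 (188, 53.9, 240.2 and 271) overlapped with all cells included and no longer did. Mki67 (286, 147, 221 and 374) and Nusap1 (148, 50.8, 109 and 162) overlapped both times. Cenpf (224, 68.2, 171 and 93.1) and Gas2l3 (84.6, 20.6, 43.1 and 23.7), higher in both Mat KO libraries with all cells, overlapped without those cells. Ube2c had 60.1, 7.93, 127 and 59.3, Ccnb2 113, 33.3, 208 and 83.6, Birc5 88.3, 14.3, 92.3 and 123, Cdca8 81.0, 27.8, 104 and 123, Kif20b 55.5, 36.5, 137 and 95.5, and Ttk 2.73, 4.76, 31.8 and 6.09. Mat KO replicate 2 was the lowest library for each of these genes but Ttk.

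These sums rested on few cells. For 29 of the 40 genes, over 50% of the UMIs of WT replicate 1 came from 1 cell, as did those of 21 genes in Mat KO replicate 2, 10 in Mat KO replicate 1 and 0 in WT replicate 2. Leaving out the Car2-rich cell of WT replicate 1 gave a median log2 fold change of −0.35 over 37 tested members, with 27 lower against 50.9% of all genes, and 0 called where 0.01% of all genes were. Ccnb2 then changed from −0.97 to 0.32, and Top2a from −1.23 to −0.87. Leaving out the cell with the most UMIs of the 40 genes in every library gave a median of −0.70, with 33 of 37 lower against 51.1% of all genes, and 0 called where 0.01% of all genes were. Without the erythroid-list cells the median was −0.20, with 26 of 36 lower against 50.6% of all genes, and 0 called where 0.0101% of all genes were. With Mat KO replicate 1 left out, 9 members were called lower, among them Ube2c, Cks2, Hmgb2 and Birc5, where 0.658% of all genes were called. With Mat KO replicate 2 left out it was 2 (Ckap2l and Top2a, against 0.498% of all genes). It was 1 with WT replicate 1 left out (Top2a, against 0.31%) and 2 with WT replicate 2 left out (Ckap2l and Sgol2a, against 0.223%). The counts with each library left out are fits with 3 libraries, in which the lone library is taken to vary like the others. With Mat KO replicate 1 left out, Sgol2a and Cdca2 were also among the members called. They had 1 and 0 UMIs left in Mat KO replicate 2 and passed the filter on low counts through WT alone. With WT replicate 2 left out, Sgol2a had 5 and 1 UMIs in Mat KO. Of its 204 UMIs in WT replicate 1, 79.4% came from 1 cell. No conclusion is drawn from these calls of Sgol2a and Cdca2.

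**Figure D4:**
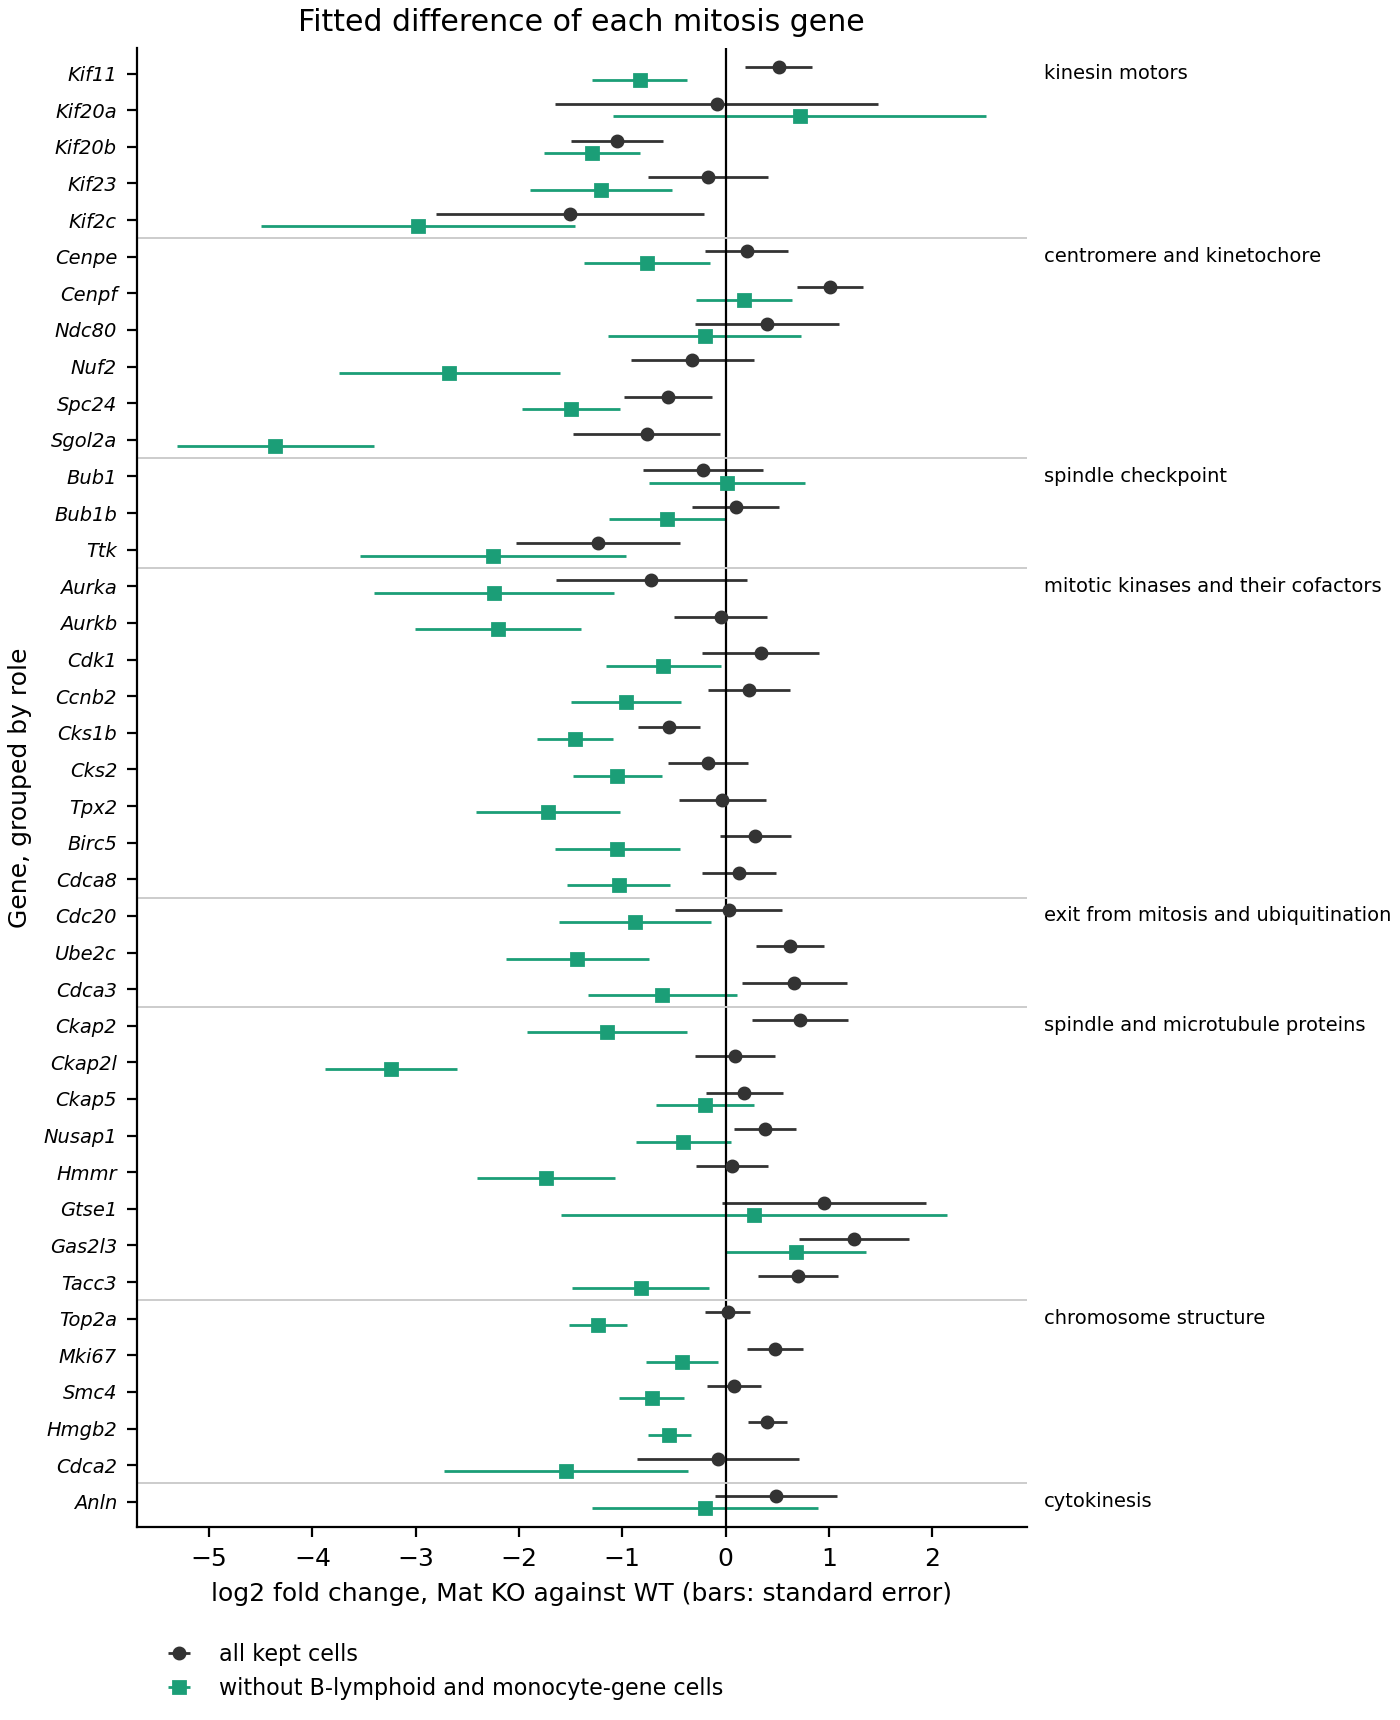
Fitted log2 fold change of each of the 40 mitosis genes, Mat KO against WT (horizontal axis, bars are standard errors), grouped by role. Circles are sums over all kept cells, of which 25 lie above 0, and squares leave out B-lymphoid and monocyte-gene cells, of which 35 lie under 0.

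The members varied together from cell to cell. Over the 170 cells thinned to 8800 UMIs, Pearson's r of log2(count + 1), averaged over the 4 libraries, had a median of 0.43 over the 780 pairs of members and ran from −0.06 to 0.82. Cdca8 and Nusap1 gave the highest pair. Against the sum of the other members, Cdca8 and Nusap1 (both 0.80) and Top2a (0.79) followed the set most closely, and Kif20a (0.08), Gas2l3 (0.22) and Ckap5 (0.25) least. Cells of a library share its depth and preparation, so these values are descriptions. In cells with at least 10 of the genes, Top2a, Mki67 and Hmgb2 had a UMI in all 58. Among the other 130 cells Hmgb2 had one in 96.9%, Smc4 in 67.7% and Top2a in 60.0%, but Ttk in 1.54% and Kif2c and Nuf2 in 3.08%. A single UMI of an abundant member thus did not set the cells with at least 10 of the genes apart, and the share that comes from free RNA was not tested.

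Of 6886 genes outside the set with a UMI in at least 10% of the thinned cells, 12 followed the summed members most closely, with a mean r of 0.62 to 0.78 over the 4 libraries. They included Prc1 (0.78), 2810417H13Rik (0.73), Casc5 (0.72), Hist1h2ae (0.66), H2afx (0.65), Aspm (0.65), Kif4 (0.64), Ccna2 (0.64), Sgol1 (0.63), Kif15 (0.62) and Racgap1 (0.62). Prc1 bundles the central spindle, Casc5 anchors the kinetochore, and H2afx and Hist1h2ae are histone genes. At the other end stood Malat1 (−0.57), Hlf (−0.54), a transcription factor of HSC, Ccnd2 (−0.53) and Ifitm1 (−0.51).

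DNA replication genes did not go together with the mitosis genes in every cell. A list of 53 S phase genes took a median of 0.434%, 0.731%, 0.578% and 0.815% of UMIs in cells with at least 20 mitosis genes, against 0.158%, 0.116%, 0.181% and 0.160% in cells with fewer than 10. At an S phase share of at least 0.5% there were 5, 4, 8 and 17 cells. Of these, 0, 1, 2 and 4 had fewer than 10 mitosis genes, and 0, 0, 2 and 5 had 10 to 19. WT replicate 2 thus held the most cells at that S phase share, both in all and among those with fewer than 10 mitosis genes. Of the 33 cells with at least 20 mitosis genes, 13 lay under that S phase share. Still, 31 of the 33 were above 0.181%, the highest library median of cells with fewer than 10 mitosis genes.

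**Figure D5:**
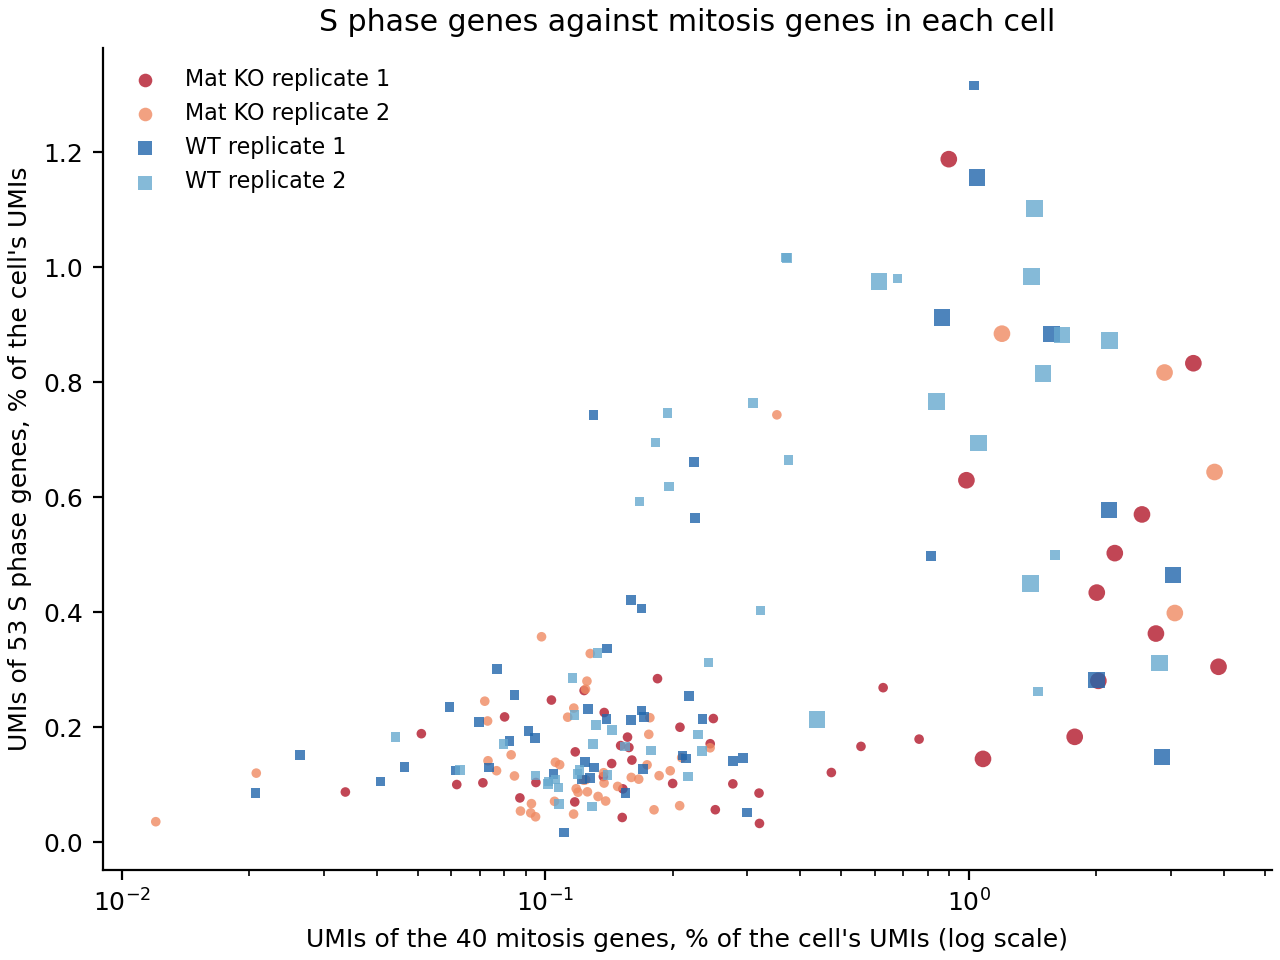
UMIs of 53 S phase genes (vertical axis) against UMIs of the 40 mitosis genes (horizontal axis, log scale), both as a percentage of the cell's UMIs. Each point is 1 cell, large points have at least 20 mitosis genes, circles are Mat KO and squares WT. At or above 0.5% on the vertical axis lie 5, 4, 8 and 17 cells, of which 5, 3, 4 and 8 are large points.

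Over all kept cells the S phase list took 0.290%, 0.245%, 0.364% and 0.538% of UMIs, with both Mat KO libraries lower than both WT libraries. In the fit, 46 of its 52 tested genes were lower in Mat KO, against 50.6% of all genes, with a median log2 fold change of −0.75 against −0.01. Unadjusted p was under 0.05 for 14, all lower, against 3.32% of all genes lower at that limit. None passed the adjusted edgeR test, whereas DESeq2 called 3 lower, against 0.206% of all genes. The erythroid marker list was also lower in Mat KO, at 0.0774%, 0.0789%, 0.123% and 0.217% of UMIs, with 6, 11, 9 and 6 of its 16 genes at 0. All 8 of its tested genes were lower (median −1.83, none past the test). Dut, which keeps uracil out of DNA, counted 121, 113, 223 and 339 CPM (−1.23 ± 0.30, edgeR adjusted p = 0.274). Lig1, the ligase of lagging-strand synthesis, counted 116, 93.9, 187 and 426 (−1.52 ± 0.38, edgeR adjusted p = 0.289). Mcm2, of the replicative helicase, counted 35.3, 15.8, 89.5 and 102 (−1.88 ± 0.49, edgeR adjusted p = 0.304). For each of these 3 genes, named for the smallest p of the list, both Mat KO libraries were under both WT libraries. That separation follows largely from the choice, and 39.1% of all genes did not overlap. Without WT replicate 2, 38 of 52 S phase genes were lower, with a median of −0.53 and 3 at p under 0.05. Without B-lymphoid and monocyte-gene cells, 47 of 52 were lower with a median of −1.03. With the erythroid-list cells left out too, 45 of 52 were lower with a median of −0.83, while 3 of 7 tested erythroid markers were lower. Leaving out WT replicate 2 together with the B-lymphoid and monocyte-gene cells gave 30 of 51 S phase genes lower, with a median of −0.30. With Mat KO replicate 1, Mat KO replicate 2 or WT replicate 1 left out in its place, the median was −0.95, −1.10 or −1.43.

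Other genes of the pathway were taken from lists, and none of them passed the edgeR test in all kept cells. Over all genes tested, 49.4% were higher in Mat KO. Of 15 other cyclins, kinases and phosphatases of the G2 to M transition, 8 were higher and 7 lower, with Cdc25a (18.9, 26.0, 58.1 and 58.1 CPM), Ccna2 (189, 67.3, 49 and 66.1) and Pbk (52.1, 37.9, 61.6 and 84.5) of smallest p. Of 18 other kinesin and spindle genes tested, 14 were higher. They included Aspm, a spindle pole protein (149, 102, 60.9 and 49.5, log2 fold change 1.21 ± 0.38, edgeR adjusted p = 0.459), and Racgap1 (108, 69, 54.7 and 57.5), while Tubg1 was lower (8.95, 12.4, 39.0 and 25.8). For Aspm, named like the others for its small p, both Mat KO libraries were above WT.

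Of 27 other centromere and kinetochore genes, 14 were higher and 13 lower. Cenph (46.8, 28.3, 52.1 and 117 CPM), Oip5 (4.21, 0.565, 14.8 and 16.9) and Cenpm (14.7, 20.4, 48.4 and 36.6) had the smallest p, and for each the Mat KO libraries were lower. Of 22 checkpoint and anaphase-promoting complex genes, 13 were higher. Among them were Pttg1, the securin (86.8, 67.8, 33.9 and 44.6), and Espl1, the separase (30.0, 41.3, 22.6 and 12), with Anapc13 lower (111, 123, 215 and 188). Of 19 condensin and cohesin genes, 10 were higher, with Wapal, which releases cohesin (187, 198, 99.9 and 126), Esco1 (51.0, 96.7, 39.0 and 36.9) and Ncaph (81.6, 32.2, 34.6 and 19.1) of smallest p. The genotypes did not overlap for Pttg1, Espl1, Wapal and Esco1, higher in Mat KO, or for Anapc13, lower. Genes named from these lists were chosen for small p in the same fit, so their separation is a description. Of all genes, 39.1% did not overlap. Without B-lymphoid and monocyte-gene cells most genes of these lists were lower, none past the test, against 50.9% of all genes. Lower were 13 of 14 G2 to M genes, 13 of 18 kinesin and spindle genes and 22 of 26 centromere genes. So were 14 of 22 checkpoint genes and 13 of 19 condensin and cohesin genes. The log2 fold change of Espl1 went from 1.08 to −1.38, that of Ncaph from 1.11 to −0.64, that of Ccna2 from 1.18 to −0.33 and that of Racgap1 from 0.69 to −0.05. Aspm (0.50), Pttg1 (0.74), Wapal (0.98) and Esco1 (1.13) stayed above 0. With the erythroid-list cells left out too, most of these lists lost that shift, against 50.6% of all genes lower. Lower were then 6 of 12 G2 to M genes, 6 of 14 kinesin and spindle genes and 11 of 22 checkpoint genes. Centromere genes (19 of 26) and condensin and cohesin genes (12 of 18) were still mostly lower.

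Of 16 genes of the MuvB, B-Myb and FoxM1 list, 11 were lower in Mat KO, against 50.6% of all genes, with a median of −0.31. Rbl1 (31.6, 59.4, 60.6 and 98.7 CPM), Tfdp1 (60.5, 48.6, 77.0 and 82.1) and Lin37 (19.5, 19.8, 22.3 and 49.2) had the smallest p, none under 0.05. For these 3, chosen by p, both Mat KO libraries were lower, and 39.1% of all genes did not overlap. Of 14 quiescence regulators 8 were higher, against 49.4% of all genes, with a median of 0.21, and again none had p under 0.05. Btg1 (269, 120.4, 102 and 142), Cdkn2c (28.4, 11.9, 4.08 and 9.53) and Egr1 (615, 399, 785 and 591) had the smallest p among them. Mat KO replicate 1 was the highest library for Btg1 and Cdkn2c and a middle one for Egr1.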

How the data were processed

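The deposited tables hold UMI counts per gene and barcode, made by the authors from a modified STRT-seq protocol on sorted single cells. Reads were mapped to mm10 with TopHat2 2.0.12 and counted with HTSeq, per the submitters' processing notes. Of 24506 rows, 95 that name no mouse gene (names that start with ERCC or RGC) stayed out of library sizes and tests, with 1978770, 2008471, 2676501 and 2337301 counts in the kept cells against 1900319, 1768647, 3183279 and 3253608 for genes. A barcode with 1000 or more genes detected counted as a cell, and the counts were summed per library and scaled to CPM for display. The sums were tested with edgeR 4.0.16 (TMM factors, quasi-likelihood test, filterByExpr, Benjamini-Hochberg adjustment at 0.05 over all genes tested), with DESeq2 1.42.0 as an alternative, in R 4.3.3. Standard errors were derived from the fold change and its F statistic. The edgeR test was also run on simulated counts, drawn gene by gene from the means and dispersions of these libraries. That run cannot show how the test behaves where a single cell holds most UMIs of genes that vary together. Shares were compared with an exact permutation test over the 4 libraries, and exact (Clopper-Pearson) 95% intervals cover counting error only.

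Values in every library are given for the 12 members with the most UMIs and the 3 of smallest p in each direction, and for any that passed. Of other lists the 3 genes of smallest p are named. Among the genes most like the members, 1 is not reported here. The members and lists were chosen with earlier results of these data known. The labels do not say that the replicates came from separate animals, so p-values reflect only how these libraries differ, possibly for technical reasons. Libraries of the same number did not deviate together (r = −0.02 over 10663 genes), so the numbers were not taken as pairs.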

Additional observations from a re-analysis of the deposited data

Results flagged for a closer look

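No cells were kept from barcodes 49 to 96 of any library. UMIs of the 40 mitosis genes were nevertheless counted there, 9 in Mat KO replicate 1 and 12 in WT replicate 2, which is above the limit of 3 counts, while Mat KO replicate 2 and WT replicate 1 had 3 each. All genes together gave 721, 769, 1293 and 1164 UMIs in those barcodes, in the order used above. The source of these UMIs was not tested.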

How the results depend on the processing

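Over all kept cells, the count of genes higher in Mat KO (8) became 98 with DESeq2, 119 without a filter on low counts, 90 with the replicate block, 3 after thinning to equal depth, 0 when the cell of most UMIs was dropped for every gene (leading cells left out), 3 without the cells with mitotic transcripts, 4 without B-lymphoid and monocyte-gene cells, and 16 to 100 with a library left out. The count of lower genes (0) became 22, 30 and 19 in the first 3 of these, 1 with the broader class left out, and 1 to 23 with a library left out. Members called stayed at 0 in these fits with all 4 libraries, where 0 (leading cells left out) to 149 (no filter) of all genes were called. The median of the members (0.09) became −0.023 without the cells with mitotic transcripts and −1.24 without the broader class. It was −1.0 without B-lymphoid and monocyte-gene cells, and −0.23 to 0.50 with a library left out. The share of UMIs in the members (difference 0.110 points) became −0.222, −0.232 and, with erythroid-list cells left out too, −0.0686 points, and −0.0616 to 0.281 with a library left out.

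Without B-lymphoid and broader-class cells, genes called higher (6) became 15 with DESeq2, 16 without the filter, 1 at 50 UMIs in 2 libraries, 0 after thinning, 13 with leading cells left out, 0 without mitotic cells, and 1 with the narrower class and erythroid-list cells, each library's leading cell or the WT replicate 1 cell left out, with 1 to 106 over the libraries left out. Lower genes (1) became 2, 14, 0, 0, 4 and 0 in the first 6 of these, 3 with the replicate block, 0 in each narrower-class fit, and 0 to 210 over the libraries left out. Members called (0) became 3 without the filter, where 0.223% of all genes were called. Top2a alone, 1, was called with the replicate block (0.126% of all genes) and with leading cells left out (17 of 7756 genes). Member counts with a library left out are not given, since 1 library then stands alone in its group. The median of the members (−1.24) became −1.92 with leading cells left out and −0.18 without mitotic cells. It was −0.20, −0.70 and −0.35 in the 3 narrower-class fits, and −1.84 to −0.57 over the libraries left out. A class limit of 0.1% turned the share of cells to 9.64 points.

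Signs turned for single genes, first without the broader and then without the narrower class, for Hmgb2 (−0.60, −0.55), Mki67 (−0.26, −0.42), Smc4 (−0.90, −0.72), Nusap1 (−0.035, −0.41), Ube2c (−1.80, −1.44), Ccnb2 (−2.58, −0.97), Birc5 (−1.09, −1.05), Cdca8 (−1.29, −1.03) and Top2a (−1.68, −1.23). Cenpf turned to −1.15 with the broader class alone. Top2a was also at −0.19 after thinning, −0.085 with leading cells left out and −1.16 without mitotic cells. Cks2 turned to 0.0099 with leading cells left out, 0.29 without mitotic cells and 0.14 without the broader class. With a library left out, the ranges that crossed 0 were −0.016 to 0.038 (Top2a), −0.19 to 0.29 (Smc4), −0.18 to 0.63 (Birc5), −0.39 to 0.50 (Cdca8), −1.06 to 0.37 (Cks2) and −0.30 to 1.01 (Ccnb2). The causes of these shifts were not tested. The limit of 20 genes, the narrower class and the fits with single cells left out were chosen after seeing the data. The Mat KO libraries were shallower.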
